A study of Mus musculus with 4 samples.

Results

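The replication-dependent histone genes were examined in CD4 T cells from colitic mice. They are the genes whose symbol starts with Hist1h, Hist2h, Hist3h or Hist4h, and 57 of the 16230 genes in the deposited table met this rule. 6 encode linker histone H1, 15 H2A, 17 H2B, 9 H3 and 10 H4. By the RefSeq annotation of GRCm38.p6, 44 lie on chromosome 13, 9 on chromosome 3, 3 on chromosome 11 and 1 on chromosome 6. Hist3h2bb-ps is a pseudogene by its name, and Hist1h2al carries a non-coding RefSeq accession and lies apart from the other Hist1 genes, at 51200084 to 51203066 of chromosome 13. Both were kept because the rule takes them.

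The host mice were Rag-/- and so lacked T and B cells of their own. They received sorted naive CD4 T cells and developed colitis, and CD4 T cells (CD3+CD4+ in the title) were sorted from their spleens 8 weeks later. The donor cells were ERαfl/fl, with loxP-flanked alleles of the estrogen receptor α gene Esr1 (control, 2 libraries), or CD4CreERαfl/fl, with the same flanked alleles and a Cre recombinase driven from Cd4 (2 libraries, meant to lack ERα in T cells and marked ERα-deficient or ERα-def. in the plots). Cd4-driven Cre acts in all cells that have passed through the CD4-expressing stage of T cell development. The labels give neither age nor sex, nor whether each library is a separate mouse, so the p-values here reflect only how far these libraries spread, which may be technical. The question posed by the design is which transcripts differ when transferred T cells lack this receptor.

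A few facts of the whole table bear on all values below. Esr1 had 0.23 FPKM (fragments per kilobase of transcript, scaled to the mapped fragments of each library) in control 1 and 1.96 in library 2 of the other group, and was listed at 0 in the remaining 2. A gene-level value cannot show the deleted part and does not check the labels, so the group is called by its label, as Cre-labelled libraries 1 and 2, throughout. Depth was low: the spacing of low FPKM values gave an estimated 712000 and 673000 reads in controls 1 and 2, and 509000 and 567000 in Cre-labelled libraries 1 and 2. All 19 T cell markers examined were lower in both Cre-labelled libraries than in both controls (summed FPKM 1872 and 1451 in controls, 405 and 355 in the other group), and none was listed at 0. All 18 macrophage and monocyte markers were higher (summed FPKM 101 and 495, against 2867 and 3413), with Adgre1, Cd14, Mertk, Fcgr1 and Marco listed at 0 in control 1. Of 14 erythroid markers, 13 had a higher mean, and the sum set control 1 apart (226 FPKM, against 8423 in control 2 and 6710 and 5259). Of 10 neutrophil genes 6 were higher without overlap, of 6 NK cell genes 4, of 8 dendritic cell genes 5, and of 3 tested B and plasma cell genes 2. In turn 1 NK cell gene (Eomes) and 1 dendritic cell gene (Xcr1) were lower without overlap. Over all genes with a mean of at least 1 FPKM, 23.2% were higher and 25.7% lower without overlap. The part of these cell types in the histone values was not tested. In bulk samples, fewer cells of a type and less RNA per cell cannot be told apart.

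Replication-dependent histone genes supply the protein that packs newly copied DNA and are transcribed mainly in S phase. Each nucleosome wraps DNA around a core of H2A, H2B, H3 and H4, and H1 binds the linker DNA between nucleosomes. The genes lie in clusters and mostly have no introns. Their mRNAs typically end just after a short stem-loop in place of a poly(A) tail. The stem-loop is bound by Slbp, which is needed for processing, translation and timed decay of these mRNAs. Some members also give polyadenylated transcripts that run on past the stem-loop, as is known for cells that have left the cycle. The sources used here do not give whether the libraries were made by poly(A) selection, which would miss RNAs without a tail.

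The stem-loop is shown first because it is the known mark of these mRNAs. A search for GGNNCTTNTCAGNGNC on the transcript strand found it in 31 of the 56 members that matched a GENCODE M21 transcript (GRCm38) by RefSeq accession. Of all 55341 gene names in that annotation, 0.18% had a transcript with these letters. Each sequence below is read 5′ to 3′ with the 16 bases of the stem-loop in capitals and 5 bases on either side in lower case. The first 5 belong to members whose groups did not overlap and are described below, and the last 2 show the highest member and the H4 gene with another loop.
Hist4h4: acaaaGGCCCTTTTCAGGGCCcacaa
Hist3h2ba: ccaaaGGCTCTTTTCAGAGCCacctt
Hist1h2bh: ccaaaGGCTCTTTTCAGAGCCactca
Hist2h2aa2: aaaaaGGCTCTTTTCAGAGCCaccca
Hist3h2a: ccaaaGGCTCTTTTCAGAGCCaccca
Hist1h1c: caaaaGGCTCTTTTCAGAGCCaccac
Hist1h4a: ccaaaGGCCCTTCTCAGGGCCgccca
The core was the same in all 25 H1, H2A, H2B and H3 members with a match (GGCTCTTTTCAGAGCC). It was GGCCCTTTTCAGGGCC in 5 H4 members and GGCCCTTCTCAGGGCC in Hist1h4a. In 16 members the annotated transcript ended within 100 bases after the stem-loop, and in 15 it ran on further, by 2445 bases in Hist4h4 and 1643 in Hist3h2a. The other 25 matched members had no such letters in their annotated transcript, which does not show that the gene lacks a stem-loop. Some of these transcripts stop at the end of the coding sequence and leave no room for one. Hist1h4k has 312 annotated bases, of which 309 code before the stop codon, and Hist1h3h has 411, of which 408 do. In the 51 RefSeq promoters of 50 members (250 bases before to 50 after the start), the letters CCAAT or ATTGG occurred in 86.3%. Among the 32851 promoters counted over all genes, which do not cover every chromosome, the share was 37.4%. TATAAA or TTTATA occurred in 56.9% of the member promoters, against 13.6% of all those counted.

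Most histone genes were barely detected. Of the 228 member values, 128 (56.1%) were listed at 0, against 17.3% of values in the whole table. Only Hist1h1c, Hist1h1e, Hist1h2al, Hist1h2be and Hist2h3b were above 0 in all 4 libraries. 7 members were listed at 0 throughout, among them the testis-type linker histone gene Hist1h1t, and 21 were above 0 in a single library. Controls 1 and 2 had 32 and 27 members at 0, and Cre-labelled libraries 1 and 2 had 36 and 33. A value of exactly 0 can also be a failed assignment of reads between copies, so such values are written as listed at 0.

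**Figure D1:**
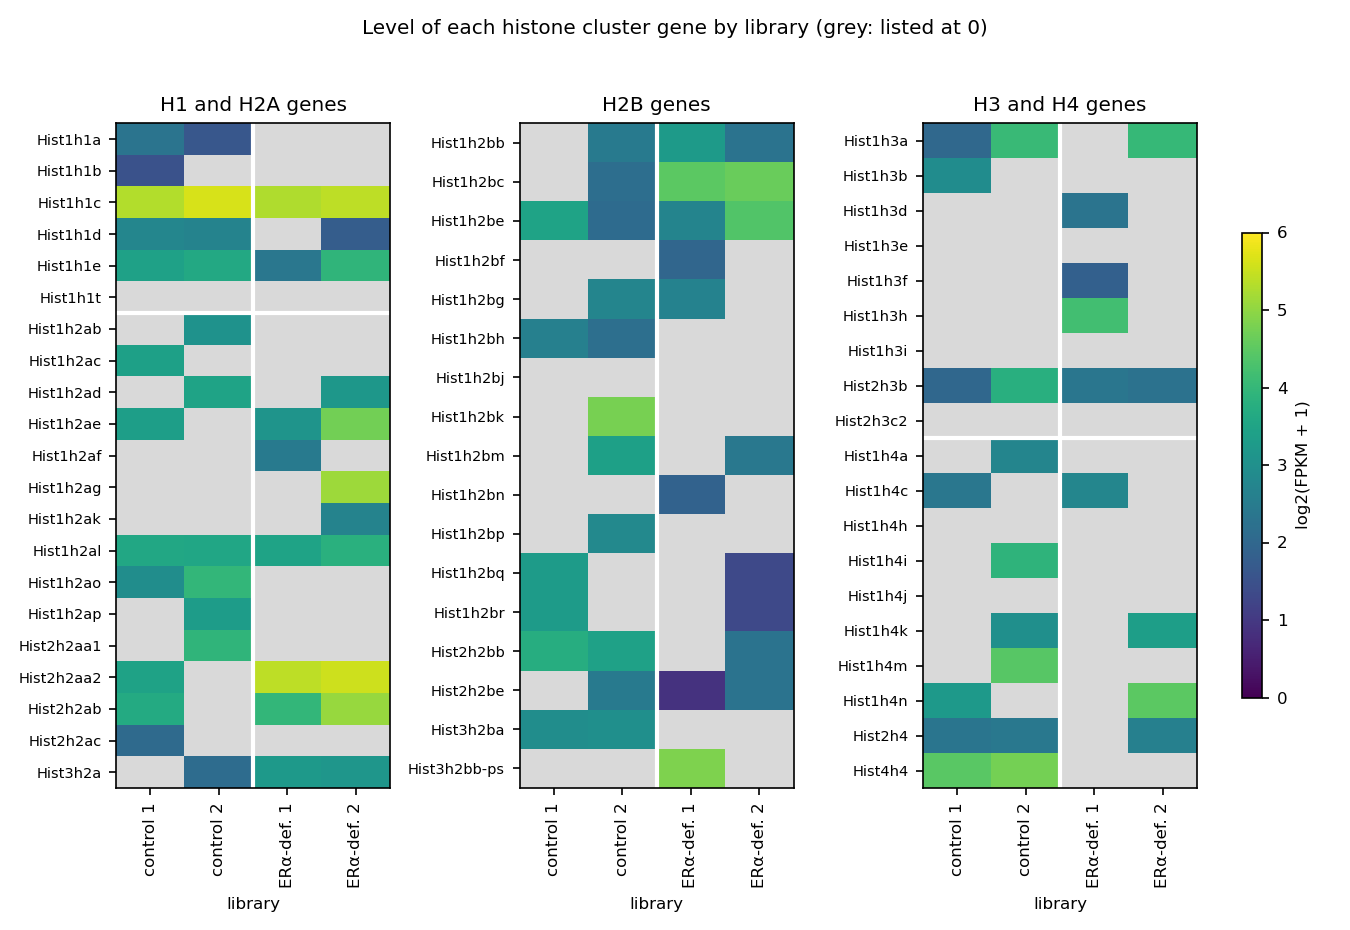
Level of each of the 57 histone genes, as log2(FPKM + 1), in the 4 libraries, with genes in rows grouped by histone type and grey for values listed at 0. Most cells are grey (128 of 228), Hist1h1c is high in every library, and Hist4h4 is above 0 in the controls alone.

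The values rest on very few reads. For the 51 members with 1 RefSeq transcript of 1 exon, reads were estimated from FPKM, length and depth. The estimate reached 10 reads in 2 members, Hist1h1c and Hist2h2aa2, and never passed 3 reads in 30. On a transcript of 500 bases 1 read was worth 3.02 to 4.23 FPKM. A limit of 3 reads, taken here as what a count of 0 allows, was worth 9.06 to 12.68 FPKM. It is an approximate limit and not a strict maximum. Only counting error is covered by these limits. Of the 84 estimates above 0, 54 lay within 0.2 of a whole read.

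**Figure D2:**
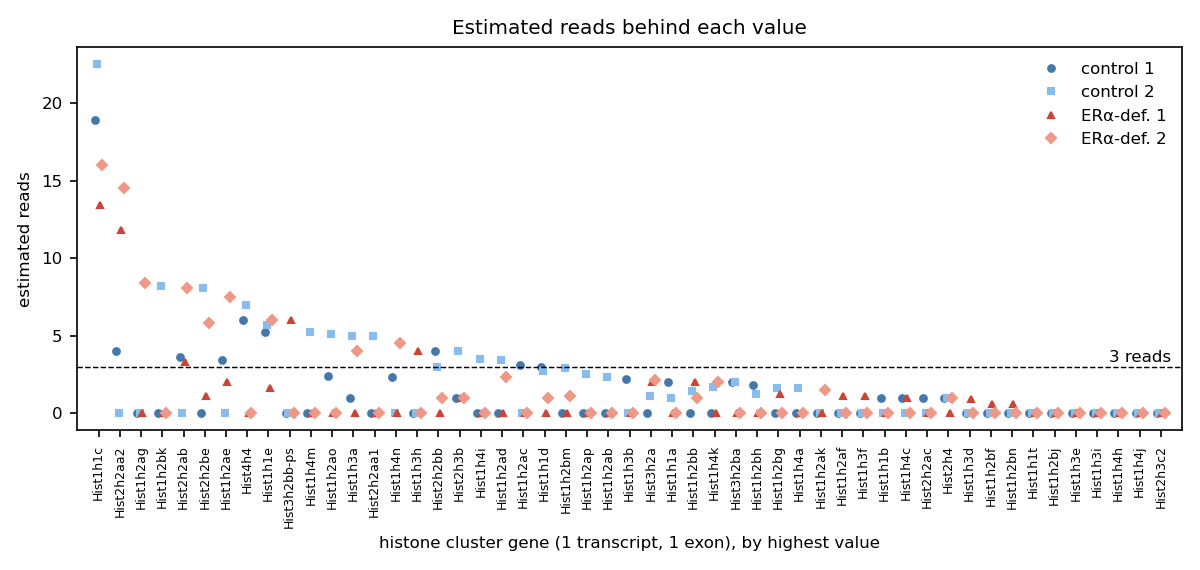
Estimated reads (vertical axis) behind each value for the 51 histone genes with 1 transcript of 1 exon, ordered by their highest library, with 1 symbol per library and a dashed line at 3 reads. Hist1h1c leads with 13.4 to 22.5 reads, and 30 genes never pass the line.

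No histone gene passed the test between the groups. The test was limma on log2(FPKM + 1), fitted across all 12896 genes with a mean of at least 1 FPKM, with Benjamini-Hochberg adjustment. 44 of the 57 members entered it, and with an adjusted p under 0.05 called, 0 rose and 0 fell, with adjusted p-values from 0.082 to 0.99. In the same fit 2 genes rose (0.0155%) and 5 fell (0.0388%). At an unadjusted p under 0.05 stood 10 of the 44 (22.7%), against 15.9% of all tested genes. Of these 10, 3 were higher in the Cre-labelled libraries, a direction with 9.1% of all tested genes, and 7 were lower, a direction with 6.8%. The 22.7% was not stable: with a pseudocount of 0.1 it was 6 of 44 (13.6%, against 14.1% of all genes), without control 1 it was 17 (38.6%, against 9.6%), and without Cre-labelled library 1 it was 7 (15.9%, against 10.3%). Both Cre-labelled libraries lay above both controls in 4 members (9.1%, against 23.2% of all tested genes) and below both controls in 7 (15.9%, against 25.7%). The other 33 overlapped. The median log2 difference was -0.55 for the tested members and -0.07 for all tested genes. The members' median was 0.0 without control 2 and -1.48 without Cre-labelled library 2. Members entered the test through the libraries in which they were above 0, so these shares and medians are descriptions. A positive log2 difference means a higher level in the Cre-labelled libraries, and with 1 added to each FPKM it understates the change of low genes.

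Among the linker histone genes, Hist1h1c had by far the most reads, and its groups overlapped. Hist1h1c (NCBI gene 50708, chromosome 13, 23738807 to 23739531) encodes the H1 subtype H1.2. It had 38.48 and 48.47 FPKM in controls against 38.22 and 40.96 in the Cre-labelled libraries, on an estimated 13.4 to 22.5 reads. The log2 difference was -0.12 ± 0.30 (SE, adjusted p = 0.869 in limma). Hist1h1e, another somatic H1 gene, had 9.84 and 11.35 against 4.19 and 14.19 FPKM, with Cre-labelled library 1 below and 2 above both controls. Hist1h1d had 5.73 and 5.42 FPKM in controls against 0 and 2.39 in the Cre-labelled libraries, so both of the latter were lower. Hist1h1a had 3.98 and 2.09 FPKM in controls and was listed at 0 in both others. The limma log2 difference was -1.84 ± 0.72 (SE) for Hist1h1d, with adjusted p = 0.308, and -1.97 ± 0.63 (SE) for Hist1h1a, with adjusted p = 0.241. Hist1h1d rests on 3.0 and 2.7 estimated reads in controls, and its difference was -0.96 without Cre-labelled library 1 and -2.72 without library 2. Its control values lie below the 7.95 FPKM of 3 reads in Cre-labelled library 1, so for that library the difference was not detectable at this depth. Hist1h1a rests on 2.0 and 1.0 estimated reads in controls, under the 3 that a count of 0 allows, so its difference was not detectable at this depth. The mean of each of the 4 tested H1 genes was lower in the Cre-labelled group, and the remaining 2 had a mean under 1 FPKM. For Hist1h1c and Hist1h1e the sign turned without control 2 (0.04) and without Cre-labelled library 1 (0.39), respectively.

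The H2A genes included members with higher and members with lower values in the Cre-labelled libraries, none past the test. Hist2h2aa2 (NCBI gene 319192, chromosome 3, 96239779 to 96240374) had 9.96 and 0 FPKM in controls against 41.46 and 45.62 in the Cre-labelled libraries. Both of these were above both controls, with a log2 difference of 3.75 ± 1.09 (SE, adjusted p = 0.21 in limma). The difference was 2.02 without control 2. Its copy Hist2h2aa1 was listed at 0 in the 3 libraries in which Hist2h2aa2 was above 0, and had 14.29 FPKM in control 2, where Hist2h2aa2 was listed at 0. The pair shared 479 windows of 50 bases, which are 100% of those in Hist2h2aa2 and 89.2% of those in Hist2h2aa1. Added together they had 9.96 and 14.29 FPKM in controls against 41.46 and 45.62 in the Cre-labelled libraries, on about 4.0, 5.0, 11.8 and 14.5 reads. The groups still did not overlap in this sum, and its log2 difference was 1.78. Hist2h2ab had 11.7 and 0 against 14.7 and 32.68 FPKM, and Hist3h2a 0 and 3.36 against 8.34 and 7.9, both without overlap and higher in the Cre-labelled libraries (limma log2 difference 2.69 ± 1.2 with adjusted p = 0.354, and 2.13 ± 0.78 with adjusted p = 0.287, ± SE). Without control 2 the Hist2h2ab difference was 0.86. Hist2h2ab rests on an estimated 3.6 and 0 reads in controls and 3.3 and 8.1 in the Cre-labelled libraries. Cre-labelled library 1 thus had no more reads than control 1, and its higher FPKM comes from the scaling to depth. Hist3h2a rests on at most 2.1 estimated reads and shares exon sequence with Trim17 on the same strand. Both its Cre-labelled values lie below the 8.91 FPKM of 3 reads in control 1, where it was listed at 0. For that library the difference was therefore not detectable at this depth. Hist1h2ae had 9.23 and 0 against 7.61 and 25.43 FPKM, and these groups overlapped. Hist1h2al was even, at 11.06 and 10.68 against 10.11 and 13.08 FPKM.

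Hist1h2ao was the H2A gene lower without overlap, at 6.63 and 14.78 FPKM in controls and listed at 0 in both other libraries (log2 difference -3.46 ± 0.59, SE, adjusted p = 0.124 in limma). Control 1 rests on 2.4 estimated reads, and its value lies below the 11.4 and 10.23 FPKM of 3 reads in the Cre-labelled libraries, so for that library the difference was not detectable at this depth. The gene belongs to a group of 8 H2A genes linked by shared sequence, where members are joined if at least 50% of the windows of one occur in the other. Of its own windows 93.5% occur in another gene. Its nearest copy, Hist1h2ap, shares 403 windows with it and had 8.91 FPKM in control 2 alone. Added together this pair had 6.63 and 23.69 FPKM in controls, on about 2.4 and 7.6 reads. Both copies were listed at 0 in both Cre-labelled libraries, so this sum was lower there without overlap. The 8 genes together had 25.41 and 41.15 FPKM in controls against 12.07 and 67.49 in the Cre-labelled libraries, so the Cre-labelled libraries lay on either side of both controls. Hist1h2ag, a member of that group, had 33.97 FPKM in Cre-labelled library 2 and was listed at 0 in the other 3. 14 of the 15 H2A genes overlap an annotated gene on the opposite strand. The sources used here do not give whether counting used the strand, so reads of the 2 strands cannot be told apart.

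Genes of a core histone type encode nearly the same protein, and many are close copies. All 10 H4 genes encode 1 protein of 103 residues, and their coding bases were 85.4% to 100% identical in pairs. The 8 H3 genes of 136 residues encode 2 proteins that are 99.3% identical. Among the 13 H2A genes of 130 residues the pairwise protein identity was at least 92.3%, and among the 13 H2B genes of 126 residues at least 92.1%. 32 members fell into 7 groups linked by shared sequence, and in 25 at least 50% of the 50-base windows occur in the transcript of another gene. Windows were taken from GENCODE transcripts, and where these are longer than the RefSeq gene the share can understate the sharing within that gene. In Hist1h2ac the share was 14.1% over 2482 bases, against a RefSeq gene of 487. Hist1h2bq and Hist1h2br, which share 1209 windows (100% and 99.8% of their own), had the same values in every library, 8.83 and 0 FPKM in controls against 0 and 1.5 in the Cre-labelled libraries. Hist1h4m and Hist1h4n alternated as the Hist2h2aa pair did: Hist1h4m had 20.85 FPKM in control 2 and was listed at 0 elsewhere, and Hist1h4n had 8.56 in control 1 and 21.57 in Cre-labelled library 2. Added together these overlapped between the groups. With each linked group added into 1 value, a setting chosen after the data were seen, 28 genes or groups had a mean of at least 1 FPKM, of which 4 (14.3%) were higher and 7 (25.0%) lower without overlap, against the 23.2% and 25.7% of all tested genes given above.

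**Figure D3:**
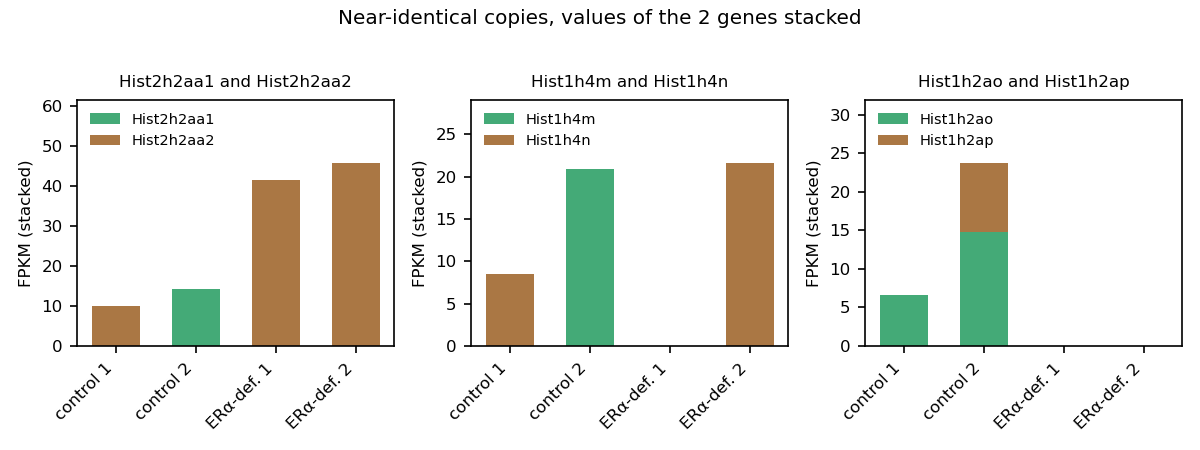
FPKM of the 2 genes of 3 near-identical pairs, stacked, in each library. In the first 2 pairs no library has both copies above 0. The sum of the Hist2h2aa pair is 9.96 and 14.29 in controls against 41.46 and 45.62. For Hist1h2ao and Hist1h2ap the sum is 6.63 and 23.69 in controls, and both are listed at 0 in the Cre-labelled libraries.

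Of the H2B genes, Hist1h2bc was higher and 3 were lower in the Cre-labelled libraries without overlap. Hist1h2bc (NCBI gene 68024, chromosome 13, 23684199 to 23692480) had 0 and 3.51 FPKM in controls against 21.48 and 23.69 in the Cre-labelled libraries, and both of the latter were above the controls (log2 difference 3.47 ± 0.76, SE, adjusted p = 0.156 in limma). It has 2 RefSeq transcripts, and its annotated GENCODE transcript is spliced, with 2 exons. Without control 1 or control 2 its log2 difference lay between 2.39 and 4.56. Hist3h2ba had 6.63 and 6.95 FPKM in controls and Hist1h2bh 5.1 and 3.55, and both were listed at 0 in the other group (limma log2 difference -2.96 ± 0.53 with adjusted p = 0.129, and -2.40 ± 0.58 with adjusted p = 0.17, ± SE). These control values rest on an estimated 2.0, 2.0, 1.8 and 1.2 reads, so neither difference was detectable at this depth. Hist2h2bb had 12.36 and 9.72 against 0 and 3.86 FPKM (log2 difference -2.44 ± 0.81, SE, adjusted p = 0.251 in limma). The difference was -1.3 without Cre-labelled library 1 and -3.58 without library 2. These values rest on an estimated 4.0 and 3.0 reads in controls and 0 and 1.0 in the Cre-labelled libraries. Both control values lie below the 12.87 FPKM of 3 reads in Cre-labelled library 1, so for that library the difference was not detectable at this depth. Hist2h2bb also overlaps annotated genes on the same and on the opposite strand, and 53.6% of its windows occur in another gene. Hist1h2be overlapped between the groups, with 10.2 and 3.25 against 5.52 and 19.66 FPKM. It overlaps the GENCODE transcript of Hist1h1e on the same strand, with 160 windows shared. Hist1h2bk (26.15 FPKM in control 2) and Hist3h2bb-ps (27.49 in Cre-labelled library 1) were above 0 in 1 library each. Hist2h2be, whose windows occur in no other gene (0.0%), had 0 and 4.59 against 0.83 and 3.91 FPKM, on up to 8.1 estimated reads, and overlapped.

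None of the H3 genes separated the groups, and their summed level was the lowest of all types in both controls and in Cre-labelled library 2. Hist1h3a had 3.06 and 15.88 FPKM in controls against 0 and 15.15 in the Cre-labelled libraries, so the libraries of each group differed more than the groups did. Hist2h3b had 3.04 and 12.72 against 4.1 and 3.79 FPKM. Hist1h3h had 17.14 FPKM in Cre-labelled library 1 alone, and Hist1h3b 6.6 FPKM in control 1 alone. Adjusted p-values for the 4 tested H3 genes ran from 0.509 to 0.75 in limma, and 5 of the 9 were not tested.

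Among all histone genes, Hist4h4 had the largest difference. Hist4h4 (NCBI gene 320332, chromosome 6, 136803993 to 136804431, minus strand) encodes the same H4 protein as the other H4 genes but lies alone on its chromosome. It had 21.02 and 25.73 FPKM in controls and was listed at 0 in both Cre-labelled libraries. The control values rest on an estimated 6.0 and 7.0 reads, and 3 reads would be 14.59 and 13.1 FPKM in the other 2 libraries. The controls thus lay above the limit taken for a count of 0, with no allowance for counting error in the controls themselves. The fitted log2 difference was -4.60 ± 0.45 (SE, adjusted p = 0.082 in limma), and -7.87 with a pseudocount of 0.1. As for the other 4 members above 0 in both controls and listed at 0 in both Cre-labelled libraries, the pseudocount sets this value, and it is neither a fold nor a bound on one. Its adjusted p was 0.0716 to 0.18 under the alternatives that kept all 4 libraries. Of the windows of its GENCODE transcript 7.1% occur in another gene. That transcript has 2863 bases, against 439 in the RefSeq gene used for the read estimate. The share within the RefSeq gene was not computed and can be higher. The same limit holds for Hist2h4 (1.0%), with 1630 against 384 bases. Hist2h4 had 4.06 and 4.26 FPKM in controls against 0 and 5.07 in the Cre-labelled libraries, on 1.0 read in each library above 0. Hist1h4k had 0 and 6.89 against 0 and 9.33 FPKM. The remaining H4 genes were each above 0 in at most 2 libraries.

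Summed by type, the H2A total was higher and the H1 and H4 totals were lower in the Cre-labelled libraries, without overlap but with wide spread within groups. Since 2 libraries against 2 cannot reach a p of 0.05 in an exact permutation test, none was run on the sums. Over all 57 genes the sum was 223.66 and 326.33 FPKM in controls against 237.57 and 346.95 in the Cre-labelled libraries, which overlapped. H2A genes summed to 61.31 and 69.48 FPKM in controls against 86.68 and 172.21, and the last 2 differed from each other more than the lower of them from the controls. H1 genes summed to 59.89 and 67.33 against 42.41 and 57.54, and H4 genes to 37.81 and 77.39 against 5.8 and 35.97. In both, Cre-labelled library 2 came close to control 1. The H2A sums rest on an estimated 17.5 and 19.4 reads in controls against 20.2 and 44.4, over 14 genes with an estimate. Cre-labelled library 1 thus had about as many H2A reads as control 2, at a lower depth. The H1 sums rest on 30.1 and 31.9 reads against 15.0 and 23.0, and the H4 sums on 10.3 and 20.0 against 1.0 and 7.5. The separation of H2A and H4 rested on few members: without the Hist2h2aa pair the H2A sums overlapped (51.35 and 55.19 against 45.22 and 126.59), and without Hist4h4 the H4 sums did (16.79 and 51.66 against 5.8 and 35.97). Without Hist1h1c the H1 sums were still lower without overlap (21.41 and 18.86 against 4.19 and 16.58). These sums were chosen after the data were seen. Sums of H2B (51.95 and 83.53 against 74.9 and 62.29) and H3 (12.7 and 28.6 against 27.78 and 18.94) overlapped.

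**Figure D4:**
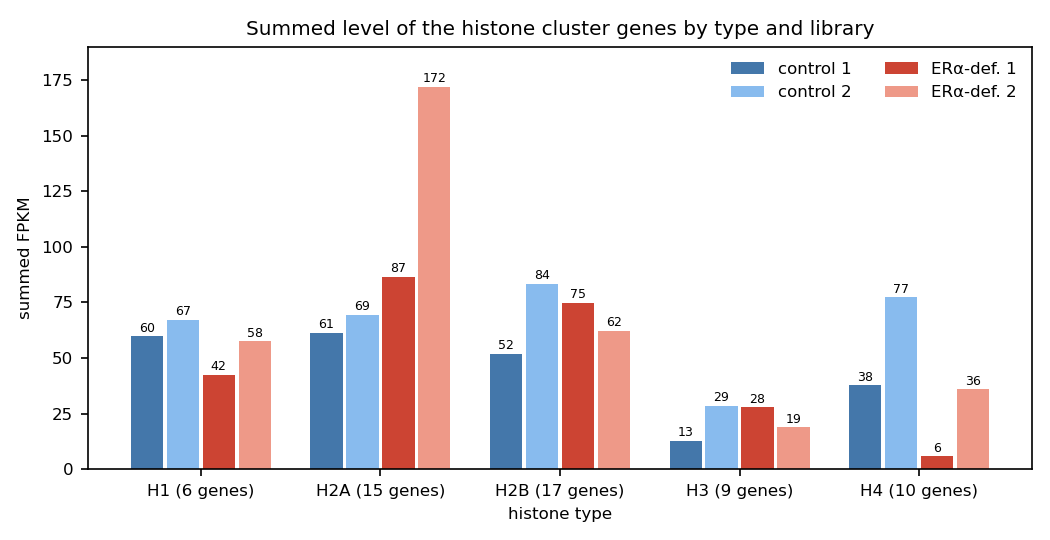
Summed FPKM of the histone genes of each type (bars) in the 4 libraries, blue for controls and red for the Cre-labelled libraries. H2A is highest in Cre-labelled library 2, at 172.21, and H4 is lowest in the first, at 5.8.

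Neighbouring members did not always have their values in the same libraries. 9 pairs of an H2A and an H2B gene stand back to back with at most 1000 bases between them, an arrangement in which both can be transcribed from the shared stretch. Hist1h2ac and Hist1h2bc are 239 bases apart. Hist1h2ac had 9.55 FPKM in control 1 and was listed at 0 in the other 3 libraries, while Hist1h2bc was high in the Cre-labelled libraries. Hist3h2bb-ps and Hist3h2a are 172 bases apart. Hist3h2bb-ps was above 0 in Cre-labelled library 1 alone, at 27.49 FPKM. Hist3h2a had 8.34 and 7.9 FPKM in Cre-labelled libraries 1 and 2, on an estimated 2.0 and 2.1 reads. The Hist2 genes on chromosome 3 summed to 44.3 and 45.58 FPKM in controls against 61.09 and 94.93 in the Cre-labelled libraries. Hist1 genes summed to 151.71 and 244.71 against 140.65 and 244.12 FPKM. By annotated transcript end, the 13 tested members that end at the stem-loop had a median log2 difference of -1.41. The 13 that run on past it had -0.38. The 17 with no such letters, among them transcripts annotated only to the end of the coding sequence, had 0.19. Each of these classes held members higher and lower without overlap.

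The rest of the histone supply chain showed lower values more often than higher ones, and none of it passed the test. Of 13 tested genes for histone mRNA processing and transcription, 0 were called in limma and 0 had an unadjusted p under 0.05. On average 11 were lower, with a median log2 difference of -0.33. Without overlap, 2 were lower and 0 higher, against 25.7% and 23.2% of all tested genes. Slbp, the stem-loop binding protein, had 20.94 and 55.7 FPKM in controls against 15.62 and 29.43 in the Cre-labelled libraries. Sympk, the scaffold of the cleavage complex, had 15.18 and 13.39 against 8.65 and 8.63. Lsm10, a subunit of the U7 particle that directs the cleavage, had 3.17 and 3.75 against 0 and 4.47. Of 11 histone variant genes made outside S phase, 0 were called and 0 had an unadjusted p under 0.05, with a median of -0.28. Without overlap, H2afj was higher (21.66 and 20.52 against 30.68 and 33.54 FPKM) and H2afy, a macroH2A gene named after its values were seen, lower (79.25 and 101.46 against 77.01 and 64.54). H1f0, the replacement linker histone, had 21.14 and 13.69 against 13.84 and 10.1. H1fx was above 0 in control 2 alone, at 4.07. This list summed to 444 and 633 FPKM in controls against 471 and 660 in the Cre-labelled libraries, above the sum of all 57 replication-dependent genes in each library.

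Histone chaperones, which carry histones to DNA, had a median log2 difference of -0.45, with 12 of 16 lower on average. Of the 16, 9 were lower and 0 higher without overlap, against 25.7% and 23.2% of all tested genes. In limma 0 were called and 1 had an unadjusted p under 0.05. Nap1l4 had 47.35 and 56.43 FPKM in controls against 32.95 and 25.56 in the Cre-labelled libraries. Ssrp1, a subunit of the FACT complex, had 63.87 and 72.48 against 47.37 and 34.69, and Rbbp4, a subunit of chromatin assembly factor 1, 19.32 and 20.01 against 5.85 and 12.83. S phase genes had a median of -0.32, with 26 of 33 lower on average, 0 called and 1 at an unadjusted p under 0.05. Without overlap, 7 of the 33 were lower and 2 higher, against the same shares of all tested genes. Rfc3, a clamp loader subunit, had 4.79 and 15.06 against 0 and 2.99 FPKM, Ccne1, which encodes cyclin E1, 8.52 and 11.91 against 5.93 and 3.55, and Tk1, thymidine kinase, 34.4 and 36.08 against 44.58 and 69.4. All 12 genes of G2 and mitosis had a lower mean (median -1.03), 8 of them without overlap, against 25.7% of all tested genes. In limma 0 were called and 2 had an unadjusted p under 0.05. Top2a, the topoisomerase of dividing cells, had 15.24 and 49.08 against 3.79 and 7.82 FPKM, Kif11, a spindle motor, 28.69 and 44.43 against 10.89 and 22.12, and Ccnb1, cyclin B1, 4.33 and 17.51 against 0 and 2.32. Control 2 was the highest of the 4 libraries in the sums of the S phase list (1705, 2089, 1750 and 1405 FPKM in controls 1 and 2 and the Cre-labelled libraries 1 and 2) and of the mitosis list (144, 365, 111 and 131). Tyms, thymidylate synthase, made up most of the S phase sums, at 1258, 1184, 1150 and 870 FPKM in that order. Without it, a sum chosen after the data were seen, control 2 was again the highest and control 1 the lowest (447, 905, 601 and 535). It also had the fewest histone genes listed at 0. The median T cell marker differed by -2.55 on the same scale.

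**Figure D5:**
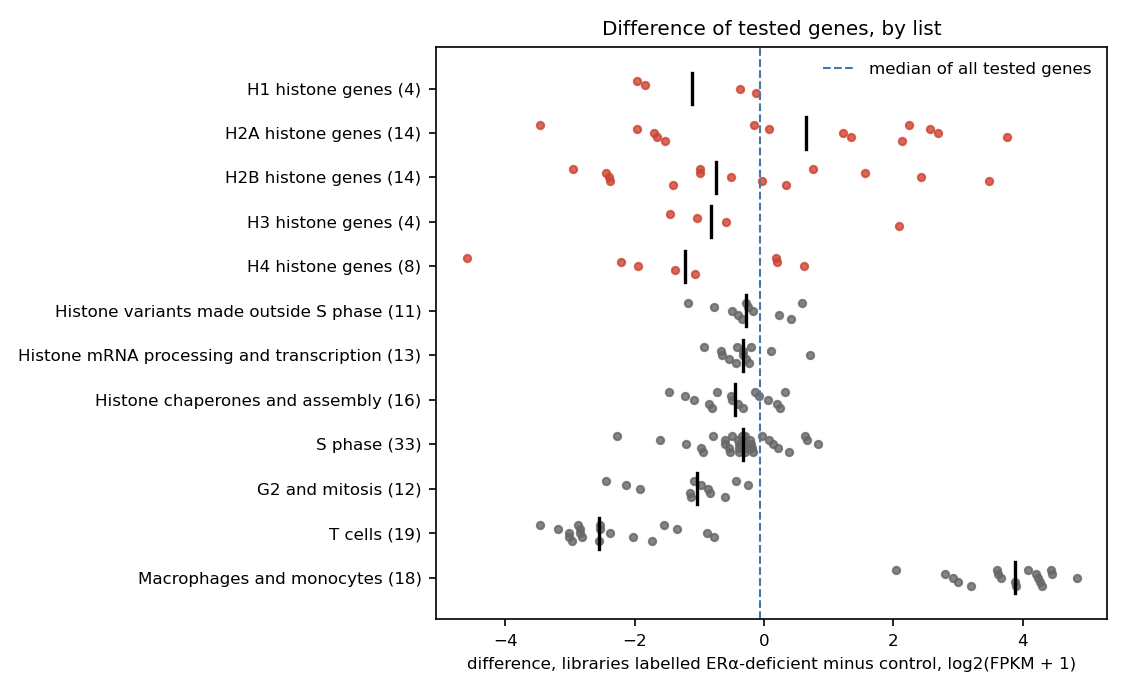
Log2 difference (Cre-labelled libraries minus control, horizontal axis) of each tested gene, with a black line at the median of its list and a dashed line at the median of all tested genes (-0.07). The histone genes spread from -4.60 to 3.75, while the S phase genes lie nearer to 0, T cell markers are all below 0 and macrophage markers all above.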

How the data were processed

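RNA-seq of 4 libraries (2 control, 2 Cre-labelled) was analysed. The authors deposited 1 table of FPKM values for 16230 genes, and the submitters' processing notes name HISAT, Bowtie2, RSEM and the build mm10, without versions or settings. Of the gene identifiers, 16183 matched RefSeq genes of GRCm38.p6, which has the mm10 coordinates. Values were taken as log2(FPKM + 1) and compared by group alone with limma (version 3.58.1, R 4.3.3), with an intensity trend. Tests were two-sided, covered every gene whose mean reached 1 FPKM, and were adjusted over all of them by the Benjamini-Hochberg method. The code was tested on simulated data.

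Reads were estimated from 1364 genes outside the histone group with 1 transcript of at least 300 bases. FPKM multiplied by length less a fitted term (36 in the formula length - term + 1) fell within 0.2 of a whole read for 86.8% to 90.2% of low values, against a median of 36.7% to 46.0% at other steps. Summed FPKM was 444640 to 450656 per library. These estimates entered no test.

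Library numbers are shared between groups, but deviations of the libraries numbered 1 did not correlate (r = -0.002), and no pairing was used. Named histone genes were those listed at 0 in both libraries of 1 group and above 0 in both of the other, the 4 of highest mean per type, and up to 2 per type and direction without overlap and with the largest difference. Of each other list, the 3 with the smallest unadjusted p were taken. The other histone genes named were chosen after their values were seen. The members and lists were chosen with earlier results of these data known. Alternatives covered the pseudocount, filter, scaling, trend, a replicate block, leaving out each library, and near-identical copies.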

Additional observations from a re-analysis of the deposited data

How the results depend on the processing

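No histone gene was called under the 11 alternatives that refitted the test, and calls were not recomputed with near-identical copies summed or left out. Over all genes, the 2 higher and 5 lower calls became 0 and 0 with a pseudocount of 0.1, no filter, a replicate block, no trend, or without any 1 library (0 to 0), and 0 and 4 at a mean FPKM of at least 5. At an unadjusted p under 0.05 these settings held 1234 to 2190 genes. Quantile and median-ratio scaling kept 2 and 5. At an unadjusted p under 0.05 in limma stood 10 of 44 histone genes (22.7%) with the replicate block, either scaling or no trend. Over all genes these settings held 14.6% to 16.2%. With a pseudocount of 0.1 it was 6 of 44 (13.6%, against 14.1%), and with no filter 9 of 50 (18.0%, against 13.9%). At a mean FPKM of at least 5 it was 5 of 18 (27.8%, against 17.4%). The block changed no histone call. Members higher without overlap numbered 6 to 13 and members lower 7 to 22 when 1 library was left out (6 and 22 without control 1, 7 and 11 without control 2, 13 and 7 without Cre-labelled library 1, 9 and 12 without library 2; over all genes 33.1% to 37.8% were then higher and 36.0% to 43.0% lower), and at a mean FPKM of at least 5, which tests 18 members, 3 were lower. Median log2 differences (main values -0.55 over all members, -1.11 H1, 0.65 H2A, -0.75 H2B, -0.82 H3, -1.22 H4) ranged, leaving out 1 library, from -1.48 to 0.0 over all members, -1.56 to -0.52 for H1, -0.05 to 0.85 for H2A, -1.53 to 0.03 for H2B, -1.0 to 0.14 for H3 and -2.02 to -0.49 for H4. With a pseudocount of 0.1 they were -1.98 (H1), 1.42 (H2A), -1.59 (H3) and -2.75 (H4). With no filter they were 0.08 (H2A), -0.28 (H2B) and 0.17 (H3), and at a mean FPKM of at least 5, -0.02 over all members, -0.25 (H1), 2.4 (H2A), 0.75 (H2B) and -2.22 (H4). Without members that have near-identical copies they were 1.73 (H2A), -0.28 (H2B) and -1.95 (H4), and with such copies summed, chosen after the data were seen, 1.56 (H2A) and -0.01 (H3). The direction of the H2B and H3 medians therefore turned with the filter or without control 2, and that of H2A without Cre-labelled library 2; the cause was not tested. Of 257 alternatives for the 24 named members, 242 kept direction and call. The other 15 left out 1 library, and their ranges were -0.29 to 0.04 (Hist1h1c), -1.16 to 0.39 (Hist1h1e), -0.1 to 0.25 (Hist1h2al), -0.08 to 1.58 (Hist1h2be), -4.76 to 0.0 (Hist1h2bk), -3.05 to 0.96 (Hist1h3a), -2.93 to 0.0 (Hist1h3b), 0.0 to 4.18 (Hist1h3h), -1.49 to 1.88 (Hist1h4k), -4.45 to 0.0 (Hist1h4m), -1.63 to 2.87 (Hist1h4n), -1.47 to 0.29 (Hist2h3b) and 0.0 to 4.83 (Hist3h2bb-ps). Hist4h4 was -4.74 to -4.46 without 1 library and -7.87 with a pseudocount of 0.1. With 2 libraries a group and few reads a gene, a difference of 1 to 3 reads could not be told from none.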
